A study of Mus musculus with 66 samples.

Results

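MiR-21a is a microRNA (miRNA) whose precursor hairpin is cut into a 5p and a 3p mature arm, and both arms were followed in mouse plasma. They were taken by name as mmu-miR-21a-5p and mmu-miR-21a-3p, which are 2 of the 1826 miRNAs in the table of C3H mice and 2 of the 1885 in the table of F2 mice. Small RNA sequencing with molecular barcodes gave counts of unique molecular indexes (UMIs), in which amplified copies of the same molecule count a single time. The C3H groups were 8 male mice with hepatocellular carcinoma (HCC) and 5 male mice without it (non-HCC), all of the inbred strain C3H, bled at necropsy by cardiac puncture, and all labelled as over 12 months after radiation with 0 days to tumor detection. By the study's methods the HCC mice include spontaneous as well as radiation-induced tumors, which the labels do not tell apart, and C3H mice also develop liver tumors without irradiation. The F2 libraries came from 15 irradiated mice of both sexes, the second generation of a cross of BALB/c females with C3H males, all labelled HCC and bled from the tail vein, with 15 samples at 1 month, 15 at 6, 13 at 12 and 10 at 18 months after irradiation. The 53 F2 columns do not say which mouse or month they hold, so they serve as a single group for description. Ages were not given in the sources used here.

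MiR-21 is among the most abundant miRNAs of mammalian cells. Its 5p arm is the guide strand, which is loaded into Argonaute and represses mRNAs such as that of the tumor suppressor PDCD4, while the 3p arm is the passenger strand and is mostly degraded. Its transcription is raised by STAT3 and AP-1, and it is known to be high in many solid tumors, HCC included, and in activated fibroblasts and hepatic stellate cells of fibrotic tissue.

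The mature arms are shown first, since the abundance of 5p over 3p and the likeness of 5p to other miRNAs recur in the results. Capitals mark the seed, bases 2 to 8, which pairs with target mRNAs, and the sequences are those of RefSeq on GRCm38.p6.
miR-21a-5p: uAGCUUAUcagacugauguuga
miR-21a-3p: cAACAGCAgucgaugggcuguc
The gene Mir21a lies on chromosome 11 of GRCm38 on the minus strand, at chr11:86584067-86584158, with 5p at chr11:86584120-86584141, 3p at chr11:86584082-86584103 and 16 bases between the arms. In the GENCODE M21 annotation it falls in exon 12 of the protein-coding gene Vmp1, on the same strand and within the 3' UTR that runs from 86583865 to 86585310. Of 1679 mature sequences in the RefSeq table, the seed AGCUUAU occurred in 2, miR-21a-5p and miR-21c, and the seed of the 3p arm occurred in miR-21a-3p alone. The mature sequences of miR-590 were missing from that table, so its seed was not compared and it is not in these counts.

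The miRNAs nearest to miR-21a-5p in sequence are shown next, because reads of near-identical miRNAs can be hard to assign. The 4 were found by edit distance, the number of bases to substitute, insert or delete, among the other 1678 mature sequences, a search made after their levels had been seen.
miR-3967: aGCUUGUCugacugauguug
miR-3965: uGCUUAUCagccugauguu
miR-21b: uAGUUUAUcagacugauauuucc
miR-21c: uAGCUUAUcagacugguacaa
MiR-3967 and miR-3965 were 4 edits from miR-21a-5p, miR-21b and miR-21c were 5, and the next miRNA was 7. With positions counted from 1 at the 5′ end of miR-21a-5p, and the first base of the other miRNA set beside base 2, miR-3967 differed at A7G and A10U over 20 bases and miR-3965 at A2U and A12C over 19 bases. Set beside it from base 1, miR-21b differed at C4U, which lies in the seed, and at G18A, G21U and A22C, and miR-21c at A16G, G18A, U19C, U20A and G21A. Mir3967 lies at chr2:22654283-22654350 in an intron of Gad2, Mir3965 at chr5:134326454-134326522 outside other genes, Mir21b at chr3:29636744-29636851 in an intron of Egfem1 and Mir21c at chr8:128278148-128278225 outside other genes.

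The C3H libraries held 9513136 to 14247488 miRNA UMIs with HCC and 10467560 to 13962539 without. The lowest value above 0 in either table is 10, so an entry of 0 stands for fewer than 10 UMIs. The HCC libraries were not equally distinct. In 3 pairs, mice 1 and 6, 2 and 5, and 3 and 7, the log2 differences between the libraries had an SD of 0.238 to 0.257 over miRNAs, against 0.820 to 1.61 in the other 25 HCC pairs and 0.387 to 0.767 in the 10 non-HCC pairs. The pairs differed by more than counting noise (chi-square per degree of freedom 31.9 to 63.7). This does not show that they are separate mice, since no libraries known to share a source were there for comparison. Whether they share a source was not tested. The 8 libraries were kept apart as the labels have them, and results are also given with these pairs summed, which leaves 5 HCC libraries. Liver miRNAs moved with HCC: miR-122-5p, the most abundant miRNA of hepatocytes, made up 2.20 to 42.7% of miRNA UMIs with HCC and 0.180 to 0.424% without.

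MiR-21a-5p had 246407 to 777820 UMIs with HCC, with a median of 627764, and 129316 to 411487 without, with a median of 255637. On the log2 scale of UMIs normalized by the spike-ins UniSP2 and UniSP4, the level of HCC mice 1 to 8 was 19.36, 20.92, 17.05, 19.35, 21.01, 20.22, 16.94 and 17.72. Non-HCC mice 1 to 5 had 17.18, 17.43, 16.57, 17.70 and 19.04. HCC mice 1, 2, 4, 5 and 6 exceeded the non-HCC group, whereas HCC mice 3, 7 and 8 lay among them, so the groups overlapped. The mean spike-in UMIs, by which levels are divided, ran from 83039 in HCC mouse 5 and 87617 in mouse 2 to 437952.5 in mouse 3 and 469953 in mouse 7. In non-HCC mice they were 182485 to 366298.5. Before this scaling HCC mice 1, 2, 5 and 6 had 777820, 726899, 732128 and 730846 UMIs of miR-21a-5p. The mean level of the HCC mice was 19.07 ± 1.65 (SD, n = 8) against 17.58 ± 0.91 (SD, n = 5), and the difference of 1.49 was within the spread between mice (two-sided exact permutation p = 0.0948 over all 1287 splits). On the counts the log2 fold change was 1.93 (SE, the standard error, 0.75; edgeR quasi-likelihood test, p = 0.0177, Benjamini-Hochberg adjusted p = 0.139 over 1452 miRNAs). MiR-21a-5p was therefore not among the 109 miRNAs, 7.51% of those tested, that were called higher in HCC, and 19.8% of the miRNAs tested had a larger log2 fold change. This fold change is larger than the difference of 1.49 because it rests on mean counts, not on mean log2 levels.

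**Figure D1:**
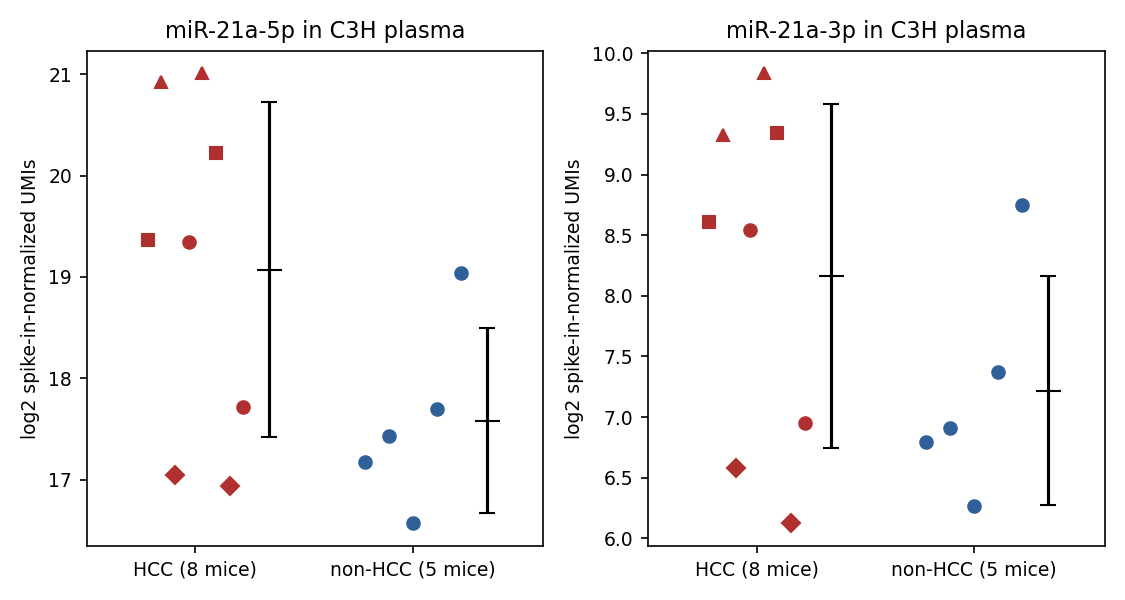
Levels of miR-21a-5p (left) and miR-21a-3p (right) in plasma of 8 HCC and 5 non-HCC C3H mice, as log2 of spike-in-normalized UMIs. Each point is a mouse, squares, triangles and diamonds mark the 3 pairs of similar HCC libraries, and bars give the mean and SD; HCC mice 3, 7 and 8 lie among the non-HCC mice for the 5p arm.

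The call for miR-21a-5p depended on the scale and the test. Over all miRNAs tested the median log2 fold change was 0.78 with spike-in scaling, 0.37 with total miRNA UMIs and 0.17 with TMM factors, and miR-21a-5p lay 1.14, 0.84 and 0.96 above these medians. It was called higher with total miRNA UMIs as the scale (log2 fold change 1.22, edgeR adjusted p = 0.0405, where 8.47% of miRNAs were called higher), and not with TMM factors (1.13, edgeR adjusted p = 0.0845, 7.37% called higher). DESeq2 called it with spike-in factors (1.93, adjusted p = 0.0292, 12.5% called higher) and with its own factors (1.17, adjusted p = 0.0171, 11.9% called higher). A block of the replicate number, which does not pair the mice, also gave a call (1.95, edgeR adjusted p = 0.0143, 9.99% called higher). HCC mice 6, 7 and 8 have no non-HCC mouse of their number, so they add nothing to the group difference in that fit. By level, mice 7 and 8 lay among the non-HCC mice and mouse 6 above them. With the similar HCC pairs summed, edgeR gave 1.74 on the spike-in scale (adjusted p = 0.188). Over 26 alternatives, the log2 fold change was above 0 in each, between 1.09 and 2.49, and was called in 4 of them. Some of these alternatives hardly differ from the edgeR fit on both spike-ins. UniSP2 and UniSP4 had medians of 465848 and 481.5 UMIs in HCC libraries, so their mean is nearly UniSP2. UniSP2 alone, no filter and a filter of 20 UMIs each gave 1.93 again.

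**Figure D2:**
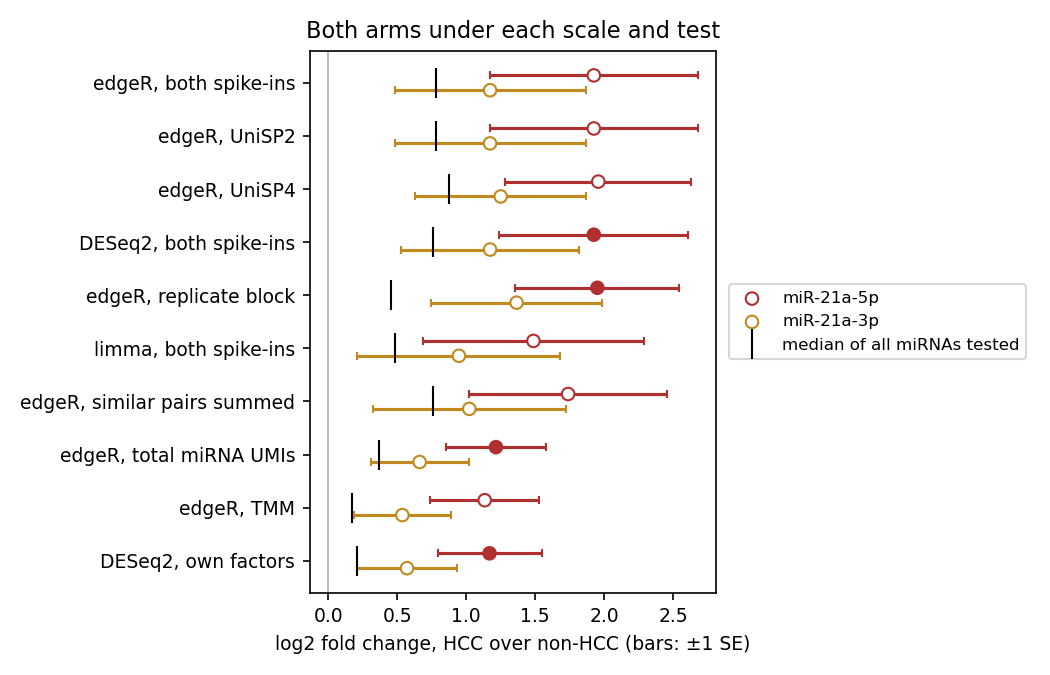
Log2 fold change of miR-21a-5p and miR-21a-3p, HCC over non-HCC, under 10 scales and tests, with bars of 1 SE. Filled points have an adjusted p under 0.05 and black ticks mark the median of all miRNAs tested; miR-21a-5p is filled in 4 settings and miR-21a-3p in 0.

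As a share of all miRNA UMIs, which needs no spike-in, miR-21a-5p made up 7.62, 5.10, 2.38, 4.20, 5.24, 7.51, 2.08 and 3.25% in HCC mice 1 to 8. In non-HCC mice 1 to 5 it made up 2.08, 1.84, 1.24, 1.96 and 2.95%. HCC mice 1, 2, 4, 5, 6 and 8 exceeded the non-HCC group, and HCC mice 3 and 7, which form a similar pair, lay within their range. The mean share was 4.67 ± 2.12% (SD, n = 8) with HCC and 2.01 ± 0.615% (SD, n = 5) without. The log2 share was higher in HCC mice by 1.13, more than the spread between mice (two-sided exact permutation p = 0.0109), and by 1.09 with the similar pairs summed (exact permutation p = 0.0159 over 252 splits). A share also moves with the other miRNAs of a library. The 2 HCC mice with the highest share of miR-21a-5p, 1 and 6, had the highest shares of miR-122-5p, up to 42.7%, and the 2 with the lowest, 3 and 7, had the lowest, 2.20 and 2.39%. The part of liver RNA in the share of miR-21a-5p was not tested. By rank within a library, miR-21a-5p stood between place 2 and 10 in HCC mice and between 7 and 13 in non-HCC mice.

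MiR-21a-3p was 1258 to 3106 times scarcer than the 5p arm in the C3H mice. It had 451, 234, 174, 295, 316, 387, 136 and 176 UMIs in HCC mice 1 to 8, and 169, 173, 101, 205 and 327 in non-HCC mice 1 to 5. Its log2 level on the spike-in scale was 8.61, 9.33, 6.58, 8.54, 9.84, 9.34, 6.12 and 6.95 with HCC and 6.80, 6.91, 6.26, 7.37 and 8.75 without. HCC mice 2, 5 and 6 exceeded the non-HCC group and HCC mouse 7 lay below all of them. The means were 8.16 ± 1.42 (SD, n = 8) and 7.22 ± 0.94 (SD, n = 5), a difference within the spread between mice (two-sided exact permutation p = 0.217). Its log2 fold change was 1.17 (SE 0.69, edgeR adjusted p = 0.394), and 36.9% of the miRNAs tested had a larger one. MiR-21a-3p was called in 0 of 26 alternatives, over which its log2 fold change ranged from 0.50 to 1.78, the latter without non-HCC mouse 5, and its adjusted p from 0.183 to 0.683. In the edgeR test 283 miRNAs, 19.5%, had an unadjusted p under 0.05, miR-21a-5p among them and miR-21a-3p not.

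The ratio of the arms within a mouse does not depend on spike-ins or depth. For 10000 UMIs of the 5p arm, HCC mice 1 to 8 had 5.80, 3.22, 7.00, 5.58, 4.32, 5.30, 5.52 and 5.69 UMIs of the 3p arm. Non-HCC mice 1 to 5 had 7.44, 6.77, 7.81, 7.75 and 7.95. All HCC mice but mouse 3 lay below all non-HCC mice, and the lowest ratios belonged to mice 2 and 5, which form a similar pair. The log2 ratio of 5p to 3p was 10.91 ± 0.34 (SD, n = 8) with HCC and 10.37 ± 0.09 (SD, n = 5) without. For this hairpin alone the difference of 0.54 exceeded the spread between mice (two-sided exact permutation p = 0.00622), and it was 0.51 with the similar pairs summed (exact permutation p = 0.00794, the smallest that these 252 splits can give). Counting error alone, by Poisson, gives this log2 ratio an SD of 0.0680 to 0.124 in HCC mice and 0.0798 to 0.144 in the others, so that the spread between non-HCC mice was of the size of counting error. Fitted over all 441 hairpins with both arms counted, the same difference had an SE of 0.24 and a 95% interval from 0.01 to 1.07, and it missed the threshold (limma p = 0.0454, adjusted p = 0.230). In that fit 14 hairpins, 3.17%, were called in either direction, 92, or 20.9%, had an unadjusted p under 0.05, and 131 had a larger difference toward 5p. The arms of miR-21a were far apart for a hairpin. By the mean log2 ratio, 10.70 for miR-21a, 5p was dominant as strongly or more in 3 hairpins. The median size of the log2 ratio over hairpins was 2.13.

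**Figure D3:**
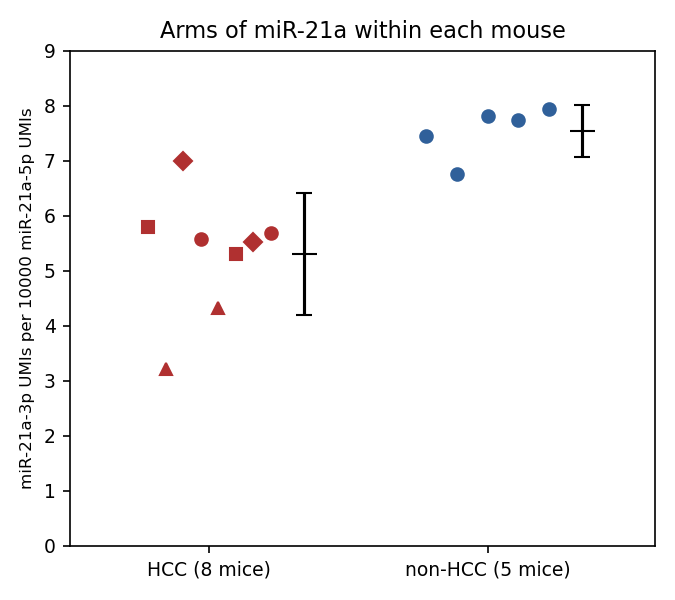
UMIs of miR-21a-3p for 10000 UMIs of miR-21a-5p in each C3H mouse, with the mean and SD of 8 HCC and 5 non-HCC mice; squares, triangles and diamonds mark the similar HCC pairs. Of the HCC mice, 7 lie below the lowest non-HCC value of 6.77.

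The relatives of miR-21a-5p by name had larger fold changes than it did. MiR-21b had 1522 to 4810 UMIs with HCC and 793 to 1743 without, and its log2 fold change on the spike-in scale was 2.30 (SE 0.74, edgeR adjusted p = 0.0628). MiR-21c, which shares the seed of miR-21a-5p, had 177 to 542 UMIs with HCC and 81 to 168 without, and a log2 fold change of 2.25 (SE 0.72, edgeR adjusted p = 0.0590). Neither passed in that fit, and each was called higher in 11 of 26 alternatives, TMM factors and total miRNA UMIs included. As a share of miRNA UMIs, each HCC mouse lay above each non-HCC mouse for both, as was the case for 4.2% of the miRNAs tested. The log2 share was higher in HCC mice by 1.51 for miR-21b (two-sided exact permutation p = 0.00155) and by 1.55 for miR-21c (exact permutation p = 0.000777). With the similar pairs summed, these differences were 1.50 and 1.54, each with an exact permutation p of 0.00794. Set against the 5p arm of the same mouse, miR-21b had 61.7 ± 5.51 UMIs for 10000 of miR-21a-5p with HCC (SD, n = 8) and 47.7 ± 8.29 without (SD, n = 5), and the log2 ratio differed by 0.38 (exact permutation p = 0.00311). MiR-21c had 6.52 ± 1.04 and 4.90 ± 1.06, with a difference in log2 ratio of 0.41 (exact permutation p = 0.0272). MiR-590, often grouped with miR-21 in seed families, had no sequence among those searched for the seed. It was scarce in C3H mice, with miR-590-5p above 0 in 1 C3H mouse and miR-590-3p in 4, and was not tested. In the F2 libraries, at lower depth, miR-590-5p was above 0 in 52 of 53 with a median of 48 UMIs, and miR-590-3p in 27 with a median of 10.

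MiR-3965 and miR-3967 followed miR-21a-5p across the mice. By the rank correlation of log2 CPM (UMIs scaled to 1000000 in each library) over the 13 C3H mice, among 335 miRNAs with a median of at least 100 UMIs, the 5 most alike to miR-21a-5p were miR-3965 (Spearman coefficient 0.978), miR-3967 (0.978), miR-148a-3p (0.967), miR-21c (0.956) and miR-21b (0.951). The 4 nearest in sequence were thus 4 of the 5 most alike in level, and the other was miR-148a-3p, an abundant liver miRNA. Within the 8 HCC mice the Spearman coefficient with miR-21a-5p was 0.905 for miR-3965, 0.952 for miR-3967, 0.952 for miR-148a-3p, 0.905 for miR-21c and 0.881 for miR-21b. MiR-122-5p, a liver miRNA that is not among the 4 nearest in sequence, also had 0.905 there, so this likeness was not particular to them. CPM values of a library share its total of miRNA UMIs as divisor, of which miR-122-5p took 0.180 to 42.7% over the C3H mice. Also, 3 pairs of HCC libraries are alike, and most of these miRNAs were higher in the same mice. The coefficients therefore describe the libraries only. MiR-3965 had 4.74 to 7.95 UMIs for 10000 of miR-21a-5p over all C3H mice and miR-3967 had 5.86 to 11.8, similar in size to miR-21c with 3.60 to 7.43. How the study's alignment treated mismatches is not given in the sources used here, and whether UMIs of these 4 miRNAs stem from molecules of miR-21a-5p was not tested, so their values are uncertain. In the C3H mice the 5p arm itself would hardly change, since the 4 together came to 0.587 to 0.900% of its UMIs there. In the F2 libraries they were higher, with medians from 32.4 for miR-3965 to 106 for miR-21b for 10000 UMIs of miR-21a-5p.

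**Figure D4:**
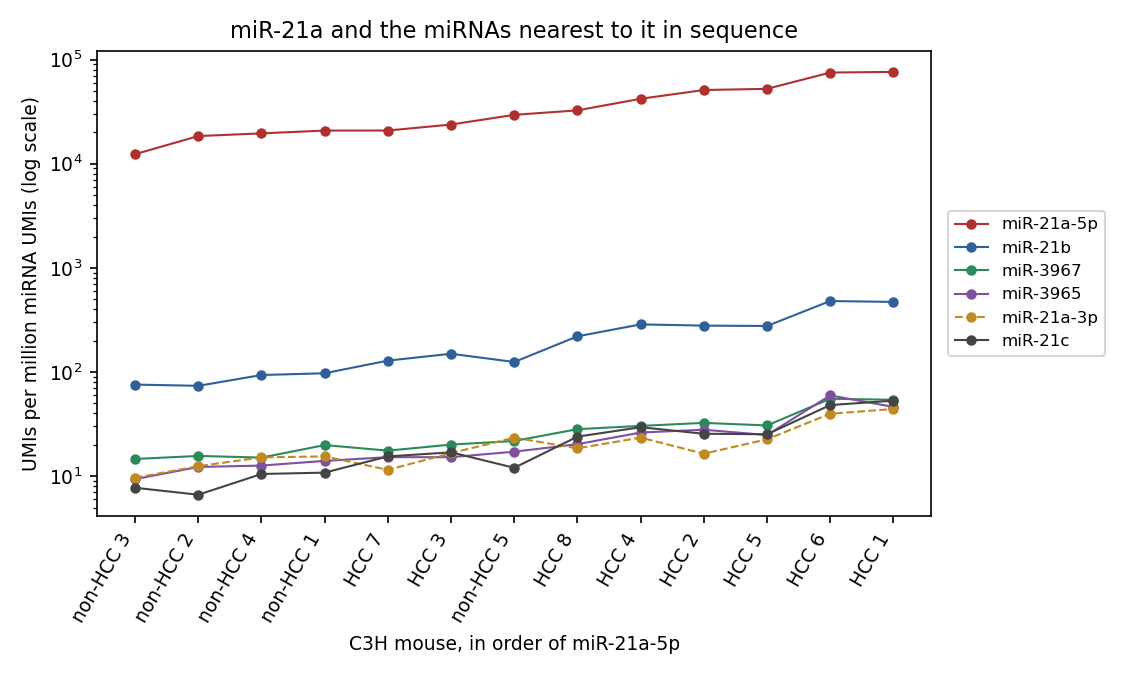
CPM, UMIs scaled to 1000000 in each library (log scale), of both arms of miR-21a and of the 4 miRNAs nearest to the 5p arm in sequence, in the 13 C3H mice in order of miR-21a-5p. MiR-21b, miR-21c, miR-3965 and miR-3967 run nearly parallel to miR-21a-5p, and miR-21a-3p (dashed) departs most from it, with a Spearman coefficient of 0.874.

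For miR-21a-3p the most alike were let-7f-1-3p (Spearman coefficient 0.885), its own 5p arm (0.874), and miR-27a-3p, miR-3965 and miR-3967 (0.863 each). By mean log2 CPM over the C3H mice miR-21a-5p stood at place 4, after miR-486b-5p and miR-451a, both abundant in red cells, and before miR-122-5p and let-7i-5p. That order comes from pooling both groups, and it was another in each. In the 8 HCC mice the mean log2 CPM was 15.37 for miR-21a-5p, 17.07 for miR-122-5p, which was higher in 7 mice, 16.04 for miR-486b-5p, higher in 5, and 14.35 for miR-451a and 14.37 for let-7i-5p, each higher in 2. Except for miR-122-5p, these differences were smaller than their SD of 1.31 to 1.96 between HCC mice. In the 5 non-HCC mice the mean was 14.24 for miR-21a-5p, below miR-486b-5p at 16.99, miR-451a at 16.09 and let-7i-5p at 15.34 in each mouse and above miR-122-5p at 11.34 in each mouse. MiR-21a-3p stood at place 266, between miR-335-3p and miR-5126.

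Other miRNAs of the processes in which miR-21 is known were counted by list in the same spike-in fit, where 7.51% of all miRNAs were called higher, 0 lower, and the median log2 fold change was 0.78. Of 11 fibrosis miRNAs 1 was called higher, miR-29c-3p, a repressor of collagen genes (log2 fold change 3.08, SE 0.80, edgeR adjusted p = 0.0202), and miR-34a-5p, a p53 target, had 2.81 (SE 0.90, edgeR adjusted p = 0.0583). The median of the 11 was 1.30. The list was not split by the direction each miRNA takes in fibrosis, so this median does not measure fibrosis. Of 16 miRNAs known from many tumors 3 were called higher, all from the miR-183 cluster, among them miR-182-5p at 4.13 (SE 0.94, edgeR adjusted p = 0.0116) and miR-183-5p at 3.79 (SE 0.94, edgeR adjusted p = 0.0173). The median of the 16 was 0.07. Of 6 miRNAs induced by NF-kB or STAT3, 1 was called higher, miR-146b-5p at 4.82 (SE 1.22, edgeR adjusted p = 0.0189), while miR-146a-5p had 1.45 (edgeR adjusted p = 0.243) and the median was 0.58. These calls changed with the mice and the test. Without 1 mouse at a time miR-29c-3p kept its call in 9 of 13 fits, and miR-183-5p and miR-146b-5p in 10 each, the losses each coming with a non-HCC mouse left out (mice 1, 2 and 3, and for miR-29c-3p also 4). On log2 values limma called none of these nor miR-182-5p (adjusted p = 0.132 for miR-29c-3p, 0.226 for miR-183-5p, 0.299 for miR-146b-5p and 0.135 for miR-182-5p). With total miRNA UMIs as the scale, 3 fibrosis miRNAs were called higher (miR-29c-3p, miR-29a-3p and miR-34a-5p) and 1 lower (miR-150-5p) with a median of 0.36 beside 0.37 over all miRNAs, so that the list no longer stood above the rest. On that scale the tumor list had 3 higher and 1 lower (miR-155-5p, also in the inflammation list) with a median of -0.39, and the inflammation list 1 higher and 1 lower with a median of 0.02. With 1.93 on the spike-in scale and 1.22 on that of total UMIs, miR-21a-5p lay above the median of each of these lists.

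Lists for the cells that give miRNA to plasma were read the same way. Of 5 liver miRNAs 4 were called higher, led by miR-122-5p at 7.34 and miR-122-3p at 6.72 (edgeR adjusted p = 0.00303 and 0.00566), and their summed share was 4.14 to 51.8% with HCC and 0.908 to 1.15% without. Of 6 red cell miRNAs 0 were called, with miR-144-5p at -1.35 and miR-144-3p at -0.84 (edgeR adjusted p = 0.507 and 0.659), miR-144-5p called lower with total miRNA UMIs, and summed shares of 6.69 to 39.5% and 36.5 to 38.9%. Of 5 platelet and leukocyte miRNAs 0 were called, with miR-150-5p at -1.82 and miR-142a-5p at -1.64 (edgeR adjusted p = 0.0957 and 0.277), although 4 were called lower with total miRNA UMIs or TMM factors (2.2% of all miRNAs lower with either), and their shares were 1.23 to 3.25% and 2.75 to 4.90%. Of 5 muscle miRNAs 0 were called, with miR-208b-3p at 2.52 and miR-1a-3p at 1.79 (edgeR adjusted p = 0.0708 and 0.277), and their shares were 0.0383 to 1.47% and 0.0737 to 0.368%. Without non-HCC mouse 5 the log2 fold changes were -0.31 for miR-144-5p, 0.20 for miR-144-3p, -0.19 for miR-142a-5p and -1.11 for miR-150-5p, and without HCC mouse 4 they were 1.61 for miR-208b-3p and 1.04 for miR-1a-3p. The medians of the 4 lists were 4.51, -0.54, -0.69 and 1.47. No miRNA of these lists was listed at 0 in a C3H mouse. Over the 13 mice, the Spearman coefficient with miR-21a-5p was 0.852 for miR-122-5p and -0.797 for miR-451a, and within the 8 HCC mice it was 0.905 and -0.762. The part of cell source in the levels of miR-21a was not tested.

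In the F2 libraries, which held 205194 to 3020311 miRNA UMIs, miR-21a-5p was counted in each of the 53 and had 905 to 76494 UMIs with a median of 7865. Its share of miRNA UMIs ran from 0.233 to 3.48% with a median of 0.895%, and its rank from 4 to 45 with a median of 17. It was among the 10 most abundant miRNAs in 13 of 53 F2 libraries and in 12 of 13 C3H mice. The share lay below that of the lowest non-HCC C3H mouse in 37 F2 libraries and above that of the highest in 2. Those 2, with 3.48 and 3.19%, also had miR-122-5p at 15.1 and 14.4% of miRNA UMIs, where the F2 median was 2.31%. Over all 53, however, the Spearman coefficient between miR-21a-5p and miR-122-5p was 0.237. The SD of log2 CPM of miR-21a-5p over the F2 libraries was 0.83, larger than that of 78.3% of the 166 miRNAs with a median of at least 100 UMIs there, and the median SD was 0.62. The cohorts differ at least in strain, sex, blood site, depth, time after irradiation and time to tumor detection. These cannot be told apart here, so the values are set side by side only.

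**Figure D5:**
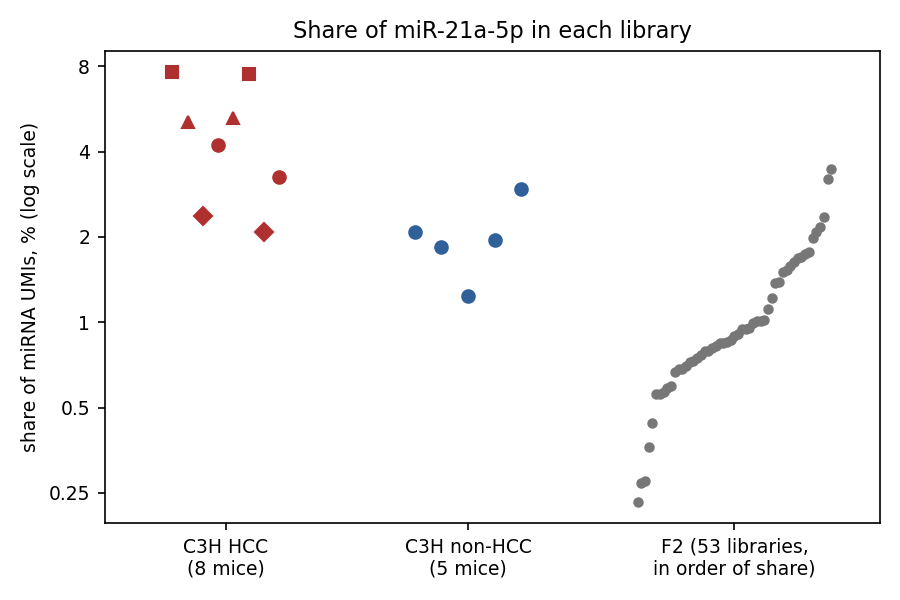
Share of miRNA UMIs taken by miR-21a-5p (log scale) in 8 HCC and 5 non-HCC C3H mice and in 53 F2 libraries, drawn in order of their share because their mouse and month are not known; squares, triangles and diamonds mark the similar HCC pairs. Of the F2 libraries, 37 lie below the lowest non-HCC mouse, at 1.24%.

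At the F2 depth miR-21a-3p was at the limit of what could be listed. It was listed at 0, which means fewer than 10 UMIs, in 11 libraries, and had 10 to 41 UMIs in the other 42. In those 42 there were 20.8 UMIs of the 3p arm for 10000 of the 5p arm at the median, from 3.66 to 122. The first quartile was 12.9, and the C3H mice had 3.22 to 7.95. The 11 libraries under 10 UMIs are left out of this ratio, which can raise it by an amount that was not tested. The 42 kept are bounded as well, since a 3p count below 10 is not listed. At the F2 median of 7865 UMIs of the 5p arm, a ratio within the C3H range could not be listed. The ratios of the cohorts can therefore not be compared here. The arms had a Spearman coefficient of 0.115 over the 53 libraries, against 0.874 over the C3H mice. The 11 libraries under 10 UMIs are in this coefficient as entries of 0 with 1 UMI added. What these entries and the low 3p counts do to the coefficient was not tested. The 4 miRNAs nearest in sequence also had lower Spearman coefficients with miR-21a-5p in F2 libraries than in C3H mice. For 10000 UMIs of miR-21a-5p the median was 106 for miR-21b, 99.5 for miR-3967, 89.9 for miR-21c and 32.4 for miR-3965, each above its highest C3H value. The Spearman coefficient with miR-21a-5p was 0.725 for miR-21b, 0.664 for miR-21c, 0.557 for miR-3967 and 0.323 for miR-3965. A median F2 library listed 1182 miRNAs above 0 from 846338 UMIs, and a median HCC C3H library 1251.5 from 11136227.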

How the data were processed

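Small RNA of plasma from 13 C3H mice and 53 F2 samples was sequenced with the QIAseq miRNA kit. The authors mapped reads to the GRCm38 genome, named miRNAs after miRBase release 20, collapsed barcodes, and deposited 2 tables of UMI counts per miRNA without normalization. The submitters' processing notes also name FastQC and Bowtie2. C3H columns were mapped to mice by the mouse name in the labels, and F2 columns only to the cohort.

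The members, the lists and the tests were chosen with earlier results of these data known. Named were both arms, the relatives by name or seed, 2 neighbours on each side in abundance, the 5 most alike miRNAs by rank correlation, and the 2 smallest p of each list. The cell lists came from an earlier analysis of the data. The nearest sequences were searched after the likeness values were seen.

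HCC and non-HCC mice were compared with edgeR 4.0.16 in R 4.3.3 (quasi-likelihood, the mean of UniSP2 and UniSP4 as library scale as in the study's methods, at least 5 UMIs in at least 5 mice, Benjamini-Hochberg adjusted p under 0.05). Each SE is the log2 fold change over the square root of F. Log2 levels had 1 UMI added and were scaled by the spike-in mean relative to its geometric mean. Arm ratios, with 1 UMI added to each arm, were fitted with limma 3.58.1. Single values were compared by exact permutation of the mice in 16 tests, 5 of them with similar pairs summed, with p-values not adjusted among them. DESeq2 1.42.0, TMM, total UMIs, single spike-ins, limma, other filters, a replicate block and leaving out each mouse were alternatives. Summing similar pairs was added after seeing the data. The edgeR fit on the spike-in scale and the limma fit of arm ratios were tested on simulated data, and the alternatives were not. C3H libraries held 9513136 miRNA UMIs or more, and for the scarce 3p arm counting error still matters. Replicates are separate mice by the labels.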

Additional observations from a re-analysis of the deposited data

Results flagged for a closer look

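Among 60 groups of log2 levels or ratios searched for a mouse apart from its group, 2 held such a mouse. Chance gives about 1 in 20 groups, so 2 of 60 is not above that rate, and both are given as description only. MiR-3967, near to miR-21a-5p in sequence, had 8.64 in non-HCC mouse 5, and the next highest of that group had 7.36. Non-HCC mouse 5 also had the highest levels of both arms of miR-21a among the non-HCC mice, 19.04 and 8.75. MiR-1a-3p, a muscle miRNA, had 14.01 in non-HCC mouse 2, with 12.86 in the next.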

How the results depend on the processing

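The threshold was crossed for miR-21a-5p under 4 of 26 alternatives, by total miRNA UMIs (log2 fold change 1.22), DESeq2 with its own factors (1.17), DESeq2 with spike-in factors (1.93) and a replicate block (1.95, adjusted p = 0.0143). With 1 mouse left out it was 1.61 to 2.49 and was called in 0 of 13 fits. The block rests on replicate numbers that do not pair the mice, since deviations of mice with the same number correlated at -0.13 to 0.07. HCC mice 6, 7 and 8, whose numbers no non-HCC mouse has, add nothing to its group difference. MiR-21a-3p was called in 0 alternatives, with 0.89 to 1.78 when 1 mouse was left out. The arm ratio of 0.54 passed by exact permutation only (p = 0.00622), and leaving out mice gave 0.44 to 0.60. The log2 share difference kept its side of the threshold in all 17 alternatives, 0.97 to 1.28 with 1 mouse left out. MiR-144-3p (-0.84) was -1.54 to 0.20 with 1 mouse left out, and 0.20 without non-HCC mouse 5, without which miR-142a-5p went from -1.64 to -0.19 and miR-144-5p from -1.35 to -0.31. Causes were not tested. Over the whole table, 109 miRNAs were called, 44 or 40 with limma, 173 higher and 49 lower with DESeq2 and its own factors, 181 and 2 with DESeq2 and spike-in factors and 44 to 157 with 1 mouse left out. Of hairpins, 14 were called, 43 with 10 UMIs added, 39 at 20 UMIs, 0 with the block in limma (91 at an unadjusted p under 0.05), 2 with pairs summed and 1 to 28 with 1 mouse left out. TMM factors gave 107 higher and 32 lower. For miR-21b and miR-21c, 11 of 26 alternatives each gave a call.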
